A study of Mus musculus with 8 samples.

Results

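The 10 genes described here encode the proteins of hepatic de novo lipogenesis, the route by which the liver builds fatty acids from carbohydrate and acetate. They are Slc25a1, Acly, Acss2, Acaca, Acacb, Fasn, Me1, Thrsp, Elovl6 and Scd1. A probe set, the group of short probes that measures 1 transcript on the array, was taken as a member when its platform annotation gave 1 gene symbol equal to one of these names. This gave 25 of the 45037 probe sets tested, between 1 and 6 per gene, and 10 of 18193 genes. 1 further probe set carried Acss2 together with another symbol and was left out.

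The values are log2 expression indices of 8 Affymetrix GeneChip arrays for the mouse genome, 1 array per liver. All animals were male KK-Ay mice of 14 weeks, a strain that becomes obese and diabetic through the yellow agouti allele on the KK background, so that no lean or nondiabetic animals enter the comparison. The control diet (CD) mice ate AIN93G, and the persimmon peel extract diet (PD) mice ate the same diet with 1 g of extract per kg, both for 8 weeks. There were 4 CD and 4 PD mice, fasted for 3 h before sampling, and they had been picked from larger groups because their plasma total ketone bodies lay near the group average. The comparison asks which liver transcripts differ when the extract is in the diet. In homogenised liver, fewer cells of a type and less RNA per cell cannot be told apart.

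In this pathway citrate leaves the mitochondria through the carrier Slc25a1 and is split to acetyl-CoA by Acly, while Acss2 makes acetyl-CoA from acetate. Acetyl-CoA carboxylases make malonyl-CoA, Fasn joins these units to palmitate with NADPH that comes in part from Me1, and Elovl6 and Scd1 lengthen and desaturate the product. The genes are known targets of SREBP-1c, which answers to insulin, and of ChREBP, which answers to glucose metabolites, and they are high in the liver after a carbohydrate meal.

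The arrays were alike in general level, with medians between 7.09 and 7.16 and correlations between arrays from 0.991 to 0.996, and Actb probed near its 3′ end exceeded Actb probed near its 5′ end, a gauge of RNA integrity, by 1.14 to 1.19 on the log2 scale. Every one of the 10 genes had a probe set above 7.13, the median level of all probe sets, and 19 of the 25 probe sets lay above it. The 6 hepatocyte markers averaged 13.85 to 13.94 in CD and 13.74 to 13.89 in PD mice, and 1 of them, Tat, was called lower in PD mice by the rank product. Of the adipocyte markers, which matter here because fat tissue also makes these enzymes, 5 of 7 were matched. Adipoq, Lep and Retn were at or below the median level. Fabp4 (9.20 in CD and 9.37 in PD mice) and Pck1 (13.24 and 13.16) were above it, and neither was called by the rank product. Their signal in liver need not come from fat cells. The adipocyte list averaged 8.36 to 8.41 in CD and 8.36 to 8.45 in PD mice. Pck1 raised this average, which is therefore no gauge of fat tissue.

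2 tests were applied across all probe sets. The rank product, the test of the study, orders the probe sets by their PD to CD ratio in all 16 possible array pairs. Its call was made where the false discovery rate (FDR) was under 0.1. limma sets the mean difference against the spread between mice. By the rank product, 5 of the 25 probe sets (20%) were higher in PD mice, against 0.213% of all probe sets, and 0 were lower, against 0.26%. The background among probe sets above the median level, where all 5 of them lie, was 0.391%. The 5 belong to Acly, Acacb, Fasn and Thrsp (2 probe sets). Neither background is matched for the spread between mice, which the rank product does not set against a difference. The median within-group SD was 0.27 over the lipogenic probe sets above the median level, against 0.09 over all such probe sets. How far the share of 20% reflects this spread was not tested. By limma 0 of the 25 passed an adjusted p under 0.1, as was so for 0% of all probe sets, and 0 had an unadjusted p under 0.05, against 3.65% of all probe sets. The lowest unadjusted p was 0.0618 for Acacb in limma. For 0 of the 25 probe sets did the groups separate completely, against 1.06% of all probe sets that separated with the PD mice on top and 1.02% with them beneath.

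Of the 25 probe sets, 22 had a higher mean in PD mice, against 47.1% of all probe sets. On the probe set with the highest mean of each gene, all 10 genes had a higher mean in PD than in CD mice, where 46.5% of all genes did. The median log2 difference, PD minus CD, was 0.21 (range 0.04 to 0.35), against −0.01 over all genes. The 10 genes rose and fell together across mice (median Pearson r of 0.70 over their 45 pairs). The counts of 22 and 10 therefore do not stand for that many independent observations of the diet. The genes were higher in 10 of 10 cases also after quantile normalization, after centring each array on its median and with 16 added before the log2. Without CD replicate 2 the median became 0.09 and 9 genes were higher, Scd1 being the exception, and without PD replicate 2 it was 0.16 with 9 genes higher, Thrsp being the exception. Without PD replicate 1 the median was 0.35, and without PD replicate 3 it was 0.11.

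**Figure D1:**
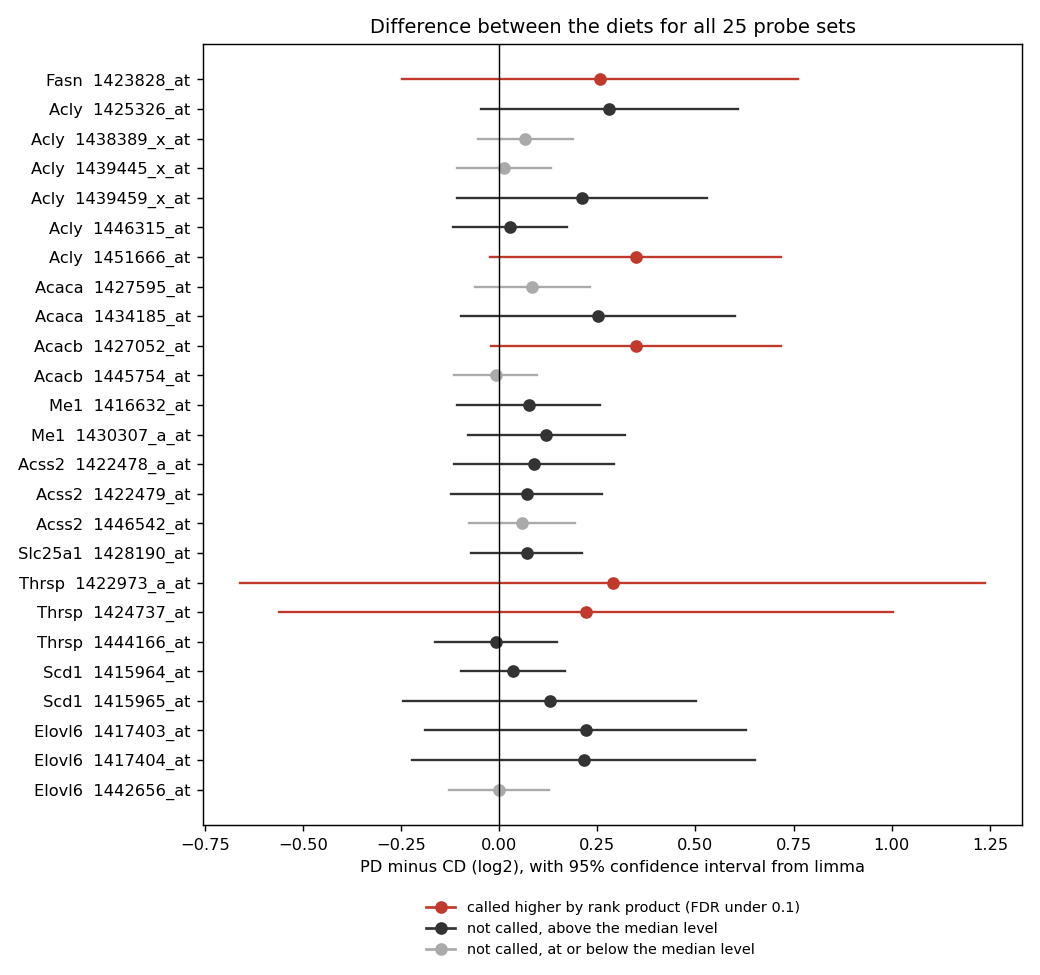
Difference between the diets for each of the 25 probe sets, as PD minus CD on the log2 scale (horizontal axis). Points are the mean differences of 4 against 4 mice and lines their 95% confidence intervals from limma. The 5 probe sets called by the rank product are red, those not called are dark grey above the median level and light grey at or below it. All 25 intervals include 0.

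Because these genes are known to share transcription factors, the 250 bases before the RefSeq start site (build GRCm38.p6) were searched on both strands for CCAAT, the NF-Y box, GGGCGG, the core Sp1 box, CACGTG, the E-box core that USF and ChREBP bind, and TCACNCCAC, an SRE-like core. 9 of the 10 genes had a window in the table used here, in 10 windows since Me1 has 2, and Scd1 had none. The windows of the 4 genes with a called probe set are printed, 5′ to 3′ on the strand of the gene, with matches to a motif or its reverse complement in capitals.
Acly (chr11:100528001-100528250, minus strand): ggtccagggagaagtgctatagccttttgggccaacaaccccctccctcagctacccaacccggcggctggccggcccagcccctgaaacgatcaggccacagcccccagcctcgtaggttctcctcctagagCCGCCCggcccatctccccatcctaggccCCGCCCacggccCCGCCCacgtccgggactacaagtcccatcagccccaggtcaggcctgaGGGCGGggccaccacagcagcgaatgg
Acacb (chr5:114165268-114165517, plus strand): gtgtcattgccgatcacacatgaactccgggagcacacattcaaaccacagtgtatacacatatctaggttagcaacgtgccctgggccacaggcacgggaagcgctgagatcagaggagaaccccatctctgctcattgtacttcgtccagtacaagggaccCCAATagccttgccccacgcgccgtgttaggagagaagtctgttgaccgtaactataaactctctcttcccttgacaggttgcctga
Fasn (chr11:120824548-120824797, minus strand): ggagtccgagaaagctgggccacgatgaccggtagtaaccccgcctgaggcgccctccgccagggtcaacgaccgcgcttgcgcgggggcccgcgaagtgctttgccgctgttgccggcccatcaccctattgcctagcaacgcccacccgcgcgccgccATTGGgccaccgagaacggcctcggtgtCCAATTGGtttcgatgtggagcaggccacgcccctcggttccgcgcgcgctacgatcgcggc
Thrsp (chr7:97417551-97417800, minus strand): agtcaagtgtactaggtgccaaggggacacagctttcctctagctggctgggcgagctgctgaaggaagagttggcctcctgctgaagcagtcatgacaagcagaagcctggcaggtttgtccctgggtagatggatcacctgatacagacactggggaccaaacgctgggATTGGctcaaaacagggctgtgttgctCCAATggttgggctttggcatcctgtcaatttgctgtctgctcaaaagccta
CCAAT was found in 6 of the 10 windows (Acacb, Acss2, Fasn, Me1, Slc25a1 and Thrsp), against 33.8% of all 32851 windows of this length. The 3 matches of Fasn begin 90, 62 and 59 bases before the start site, the latter overlapping by 2 bases on opposite strands, and those of Thrsp begin 79 and 52 bases before it. GGGCGG was found in 4 windows (Acly, Acss2, Me1 and Slc25a1), against 32.7%, CACGTG in that of Slc25a1 alone, against 6.02%, and TCACNCCAC in 0 of 10, against 1.05%. These are matches of letters, and a window without a match says only that these letters are not in it.

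Slc25a1, Acly and Acss2 deliver cytosolic acetyl-CoA. Slc25a1 (1428190_at) was 10.47, 10.42, 10.51 and 10.32 in CD replicates 1 to 4 and 10.36, 10.48, 10.62 and 10.54 in PD replicates 1 to 4. The values covered 0.30 log2 units in all, and the groups overlapped. The means were 10.43 ± 0.09 and 10.50 ± 0.11 (SD, n = 4 each), a difference of 0.07 with a 95% interval from −0.07 to 0.21. It was 0.03 without CD replicate 4 or PD replicate 3 and 0.12 without PD replicate 1.

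Acly, ATP citrate lyase, was measured by 6 probe sets. On 1451666_at it was 11.11, 10.44, 10.68 and 10.98 in CD mice and 10.74, 11.25, 11.50 and 11.10 in PD mice, in the order of the replicate numbers. CD replicate 2 was lowest and PD replicate 3 highest, and 2 of the PD mice lay above every CD mouse. The mean rose from 10.80 ± 0.30 to 11.15 ± 0.32 (SD, n = 4 each), by 0.35 (standard error 0.17, 95% interval −0.02 to 0.72; FDR = 0.0558, rank product). On the brightest probe set, 1439459_x_at, the difference was 0.21 (11.20 ± 0.24 and 11.41 ± 0.28) with an FDR of 0.311, and on 1425326_at it was 0.28 (8.50 ± 0.25 and 8.78 ± 0.28) with an FDR of 0.184, so neither was called. These 3 probe sets ordered the mice alike, with Pearson r between 0.953 and 0.976 over the 8 mice. The fourth above the median level, 1446315_at, did not follow them (r between −0.19 and 0.02) and covered only 0.27 log2 units, and the 2 at or below the median level differed by 0.07 and 0.01. Leaving out CD replicate 2 ended the call on 1451666_at (0.23), as did leaving out PD replicates 2, 3 or 4 (0.31, 0.23 and 0.36).

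Acss2, cytosolic acetyl-CoA synthetase, was 10.09, 9.82, 10.0005 and 10.12 in CD and 9.87, 10.16, 10.29 and 10.07 in PD mice on 1422478_a_at. CD replicate 2 was lowest and PD replicate 3 highest, as for Acly, and PD replicate 1 was next to lowest. The means of 10.01 ± 0.13 and 10.10 ± 0.18 (SD, n = 4 each) differed by 0.09 (95% interval −0.12 to 0.29), and on 1422479_at, which correlated with it at r = 0.907, by 0.07. The dim probe set 1446542_at differed by 0.06. On 1422478_a_at the difference shrank without CD replicate 2 (0.03) or PD replicate 3 (0.02) and was 0.17 without PD replicate 1.

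Both acetyl-CoA carboxylases had a higher mean in PD mice. Acaca, the cytosolic form that feeds fatty acid synthesis, was 10.16, 9.84, 10.41 and 10.21 in CD and 9.93, 10.64, 10.62 and 10.44 in PD mice (1434185_at). PD replicates 2, 3 and 4 lay above every CD mouse and PD replicate 1 lay below 3 of them. The means were 10.16 ± 0.24 and 10.41 ± 0.33 (SD, n = 4 each), a difference of 0.25 (95% interval −0.10 to 0.60) that was not called (FDR = 0.177, rank product). It passed without CD replicate 3 (0.34) or PD replicate 1 (0.41), and when PD arrays were ranked relative to the averaged CD arrays (FDR = 0.0797), and it was 0.15 without CD replicate 2. The other probe set of Acaca, below the median level, differed by 0.08.

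Acacb, the form at the outer mitochondrial membrane whose malonyl-CoA restrains fatty acid import, was 8.30, 7.83, 8.29 and 7.97 in CD and 7.99, 8.41, 8.86 and 8.53 in PD mice (1427052_at). Here too PD replicates 2, 3 and 4 lay above every CD mouse, while PD replicate 1 was close to CD replicate 4. The mean rose from 8.10 ± 0.24 to 8.45 ± 0.36 (SD, n = 4 each), by 0.35 (standard error 0.17, 95% interval −0.02 to 0.72; FDR = 0.0552, rank product). With 4 against 4 mice an exact permutation test cannot go below p = 0.0286, and for Acacb it gave p = 0.143, the lowest of the 25 probe sets. Leaving out CD replicates 2 or 4 ended the call (0.26 and 0.30), and so did PD replicates 2, 3 or 4 (0.36, 0.21 and 0.32). The dim probe set 1445754_at differed by −0.01, and averaged over both probe sets the difference was 0.17 (exact permutation p = 0.171).

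Fasn, fatty acid synthase, was 11.61, 11.08, 11.75 and 11.79 in CD and 11.08, 12.10, 12.16 and 11.92 in PD mice (1423828_at, its only probe set). CD replicate 2 and PD replicate 1 had nearly the same low value, and PD replicates 2, 3 and 4 lay above every CD mouse. PD replicate 3 held 2.11 times the Fasn signal of PD replicate 1, which was fed the same diet. The mean rose from 11.56 ± 0.33 to 11.81 ± 0.50 (SD, n = 4 each), by 0.26 (standard error 0.23, 95% interval −0.25 to 0.76), and the call lay just inside the threshold (FDR = 0.0976, rank product). The exact permutation test gave p = 0.4. In 5 of the 8 runs that left out 1 mouse Fasn was not called, namely those without CD replicates 1 or 2 (0.27 and 0.10) and those without PD replicates 2, 3 or 4 (0.16, 0.14 and 0.22). The difference became 0.50 without PD replicate 1. Fasn was also not called after quantile normalization (FDR = 0.11) or when dim probe sets were removed first (FDR = 0.165).

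Me1, cytosolic malic enzyme and a source of NADPH, was not called on either probe set. It was 11.53, 11.44, 11.75 and 11.45 in CD and 11.56, 11.48, 11.77 and 11.83 in PD mice (1430307_a_at), with the groups overlapping over most of their range. The means of 11.54 ± 0.14 and 11.66 ± 0.16 (SD, n = 4 each) differed by 0.12 (95% interval −0.08 to 0.32), and on 1416632_at by 0.08. Leaving out CD replicate 3 raised the former to 0.19, and leaving out PD replicate 4 lowered it to 0.06.

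Thrsp, the nuclear protein Spot 14 that rises with carbohydrate feeding and promotes lipogenesis, varied most between mice. It was 11.56, 12.09, 11.68 and 12.10 in CD and 10.60, 13.06, 12.79 and 12.14 in PD mice on 1422973_a_at. PD replicate 1 was the lowest of the 8 mice and the other PD mice were above every CD mouse, so that the PD mice bracketed the CD mice. The highest and lowest mouse differed 5.51-fold, both of them on the PD diet. The mean rose from 11.86 ± 0.28 to 12.15 ± 1.10 (SD, n = 4 each), by 0.29 with a 95% interval from −0.66 to 1.24 (FDR = 0.0143, rank product). On 1424737_at, which followed it at r = 0.999, the mean rose from 12.89 ± 0.21 to 13.11 ± 0.91, by 0.22 (95% interval −0.56 to 1.00; FDR = 0.0284, rank product), and the exact permutation test gave p = 0.714. Without PD replicate 2 both differences turned (−0.015 and −0.024), without PD replicate 3 they fell to 0.07 and 0.05 and were not called, and without PD replicate 4 the call was lost on 1424737_at (0.21). Without PD replicate 1 they were 0.81 and 0.65. The difference on 1422973_a_at also moved without CD replicate 1 (0.19), and that on 1424737_at without CD replicate 1 was 0.15. A further probe set, 1444166_at, covered only 0.27 log2 units and differed by −0.01.

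Elovl6, the elongase that turns palmitate to stearate, was 10.90, 10.17, 10.73 and 10.76 in CD and 10.42, 10.62, 11.07 and 11.30 in PD mice (1417404_at). CD replicate 2 and PD replicate 1 were lowest again, while the highest mouse was PD replicate 4. The means of 10.64 ± 0.32 and 10.85 ± 0.40 (SD, n = 4 each) differed by 0.21 (95% interval −0.22 to 0.65; FDR = 0.249, rank product), and on 1417403_at, with r = 0.984 between them, by 0.22 (FDR = 0.271, rank product). The dim probe set 1442656_at differed by −0.0012. Leaving out 1 mouse gave 0.06 to 0.36 on each of the former 2, lowest without CD replicate 2 and highest without PD replicate 1, and 1417404_at was 0.07 without PD replicate 4 and 0.14 without PD replicate 3.

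Scd1, stearoyl-CoA desaturase, was among the brightest transcripts on 1415964_at, at a percentile of 99.98 among the probe sets. There it was 14.37, 14.22, 14.42 and 14.33 in CD and 14.32, 14.26, 14.46 and 14.44 in PD mice. On 1415965_at it was 11.09, 10.40, 11.17 and 11.11 in CD and 10.85, 10.88, 11.29 and 11.28 in PD mice. Both probe sets put CD replicate 2 lowest and PD replicate 3 highest, with r = 0.915, but the range was 0.23 on the former and 0.89 on the latter. The differences were 0.04 (95% interval −0.10 to 0.17) and 0.13 (95% interval −0.24 to 0.50), and neither was called. Without CD replicate 2 they were −0.0022 and −0.052. Averaged over both probe sets the difference was 0.08.

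**Figure D2:**
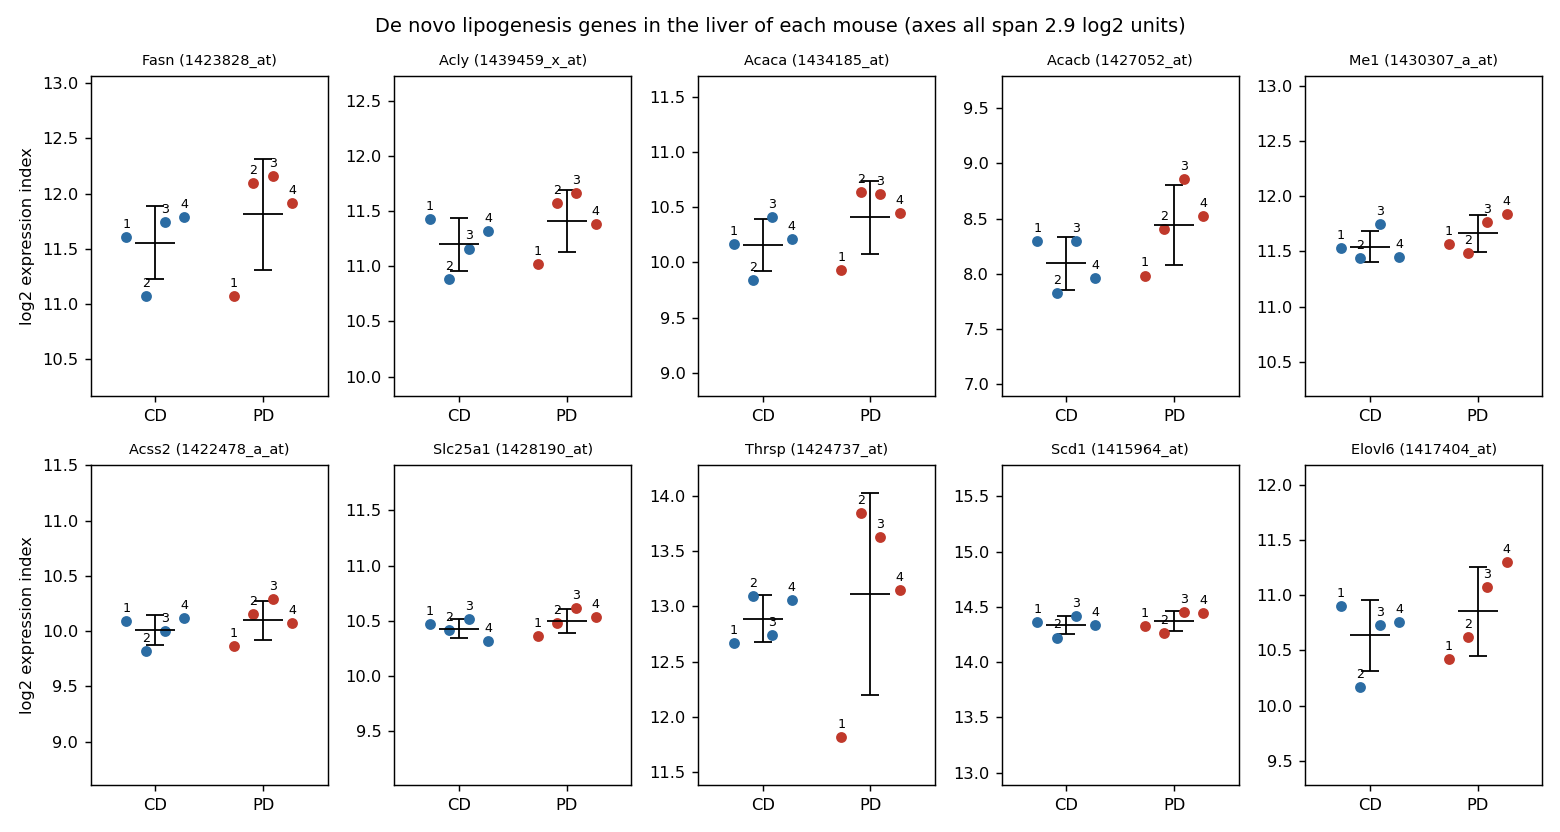
Log2 expression index (vertical axis, spanning 2.9 units in every panel) of the brightest probe set of each gene with the 4 CD mice in blue and the 4 PD mice in red. Numbers are replicate numbers, and horizontal bars with whiskers give mean ± SD. For every gene the diets overlap, and PD replicate 1 is the lowest or next to lowest PD mouse in every panel.

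The spread between mice on the same diet was wide. The median within-group SD over the 19 probe sets above the median level was 0.27, against 0.09 over all 22518 such probe sets. CD replicate 2 had the lowest value of 8 of the 10 genes and of 13 of the 19 probe sets, where it was lowest for 11.2% of all probe sets above the median level. PD replicate 3 had the highest value of 6 genes and of 10 of the 19 probe sets, against 10.3% of all such probe sets. Thrsp was lowest in PD replicate 1 and Slc25a1 in CD replicate 4.

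Averaged over the 10 genes, the deviation from the mean of all mice was −0.02, −0.30, 0.00 and −0.04 in CD replicates 1 to 4 and −0.34, 0.18, 0.34 and 0.18 in PD replicates 1 to 4. PD replicate 1 lay below the mean for 10 of 10 genes and PD replicates 3 and 4 above it for 10 of 10. CD replicate 2 lay below the mean for 9 of 10, with Thrsp, at 0.09 above it, as the exception. The averages of the other 3 CD mice were close to 0. Among marker lists of other cell types, CD replicate 2 was also the lowest mouse for the Kupffer cell and macrophage list (8 of 8 markers matched, 8.56, against 8.65 to 9.01 in the other CD mice) and for the stellate cell and fibroblast list (8 of 8 matched, 8.13, against 8.21 to 8.45). PD replicate 1 was the highest PD mouse for the former (8.88, against 8.79 to 8.83) and the lowest for the latter (8.35, against 8.36 to 8.45). Between the diets, the neutrophil list (4 of 4 matched) averaged 7.46 to 7.59 in CD and 7.36 to 7.46 in PD mice. Of the 8 stellate markers, 5 had a higher mean in PD mice, and 1 of these, Col3a1, was called higher. Col1a1 (−0.02), Des (−0.01) and Reln (−0.04) had a lower mean in PD mice. The part of these cells in the spread of the lipogenic genes was not tested.

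**Figure D3:**
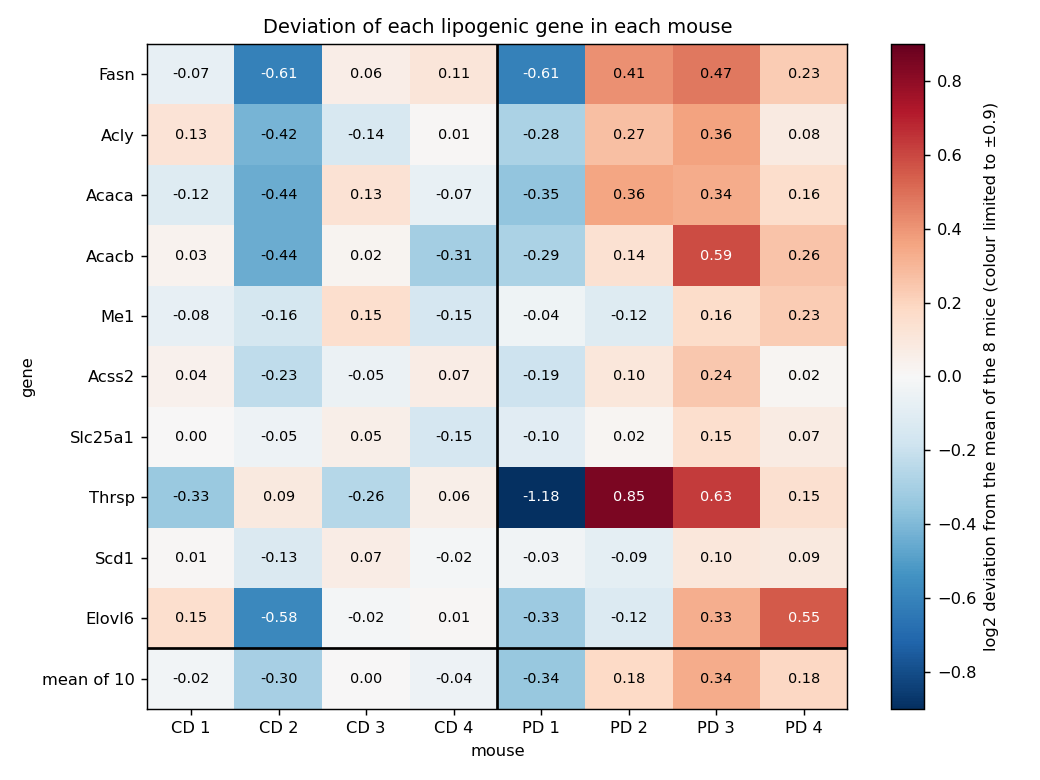
Log2 deviation of each gene (rows, brightest probe set) in each mouse (columns) from the mean of the 8 mice, with the mean of the 10 genes in the bottom row. Red is above and blue below the mean, and each cell prints its value. The columns of CD replicate 2 and PD replicate 1 are blue for nearly every gene, and Thrsp is the exception in CD replicate 2.

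The genes rose and fell together across mice to unequal degrees. All 45 pairs of genes had a Pearson r above 0 over the 8 mice, with a median of 0.70. Once the mean of each diet was removed, 43 pairs were above 0 and the median was 0.65. By an exact permutation test, two-sided, 12 pairs had a Benjamini-Hochberg adjusted p under 0.05 over the 45 pairs. By Spearman's rho 0 pairs did so, the lowest adjusted p being 0.0502 (exact permutation test). For each pair, the 2 mice farthest from the median of the first gene were then left out together. For most pairs these were CD replicate 2 and PD replicate 1. The median r was then 0.56, and the 12 pairs had r from 0.506 to 0.945. Within the PD mice alone r was above 0 for every pair. Within the CD mice alone it was below 0 for every pair with Thrsp, from −0.98 (Acacb) to −0.42 (Acss2). Slc25a1 also had r below 0 with Fasn, Acly and Acss2 there.

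The closest pair was Acly and Acss2, the 2 makers of cytosolic acetyl-CoA (r = 0.968, exact permutation p = 1.24e-04, adjusted p = 0.00558; rho = 0.929, exact permutation p = 0.00223, adjusted p = 0.0502; r = 0.905 without CD replicate 2 and PD replicate 1). Next came Fasn and Acaca, which act in turn on malonyl-CoA (r = 0.965, exact permutation p = 3.72e-04, adjusted p = 0.00837; rho = 0.952, exact permutation p = 0.00114, adjusted p = 0.0502; r = 0.919 without the same mice). Of the 10 pairs among Fasn, Acly, Acaca, Acacb and Acss2, r lay between 0.811 and 0.968 and 9 had an adjusted p under 0.05. This group of genes was not set beforehand, so its range and count are descriptions only. Acacb and Slc25a1 had r = 0.899 (exact permutation p = 0.00305, adjusted p = 0.0275; rho = 0.857, exact permutation p = 0.0107, adjusted p = 0.0603) and r = 0.945 without CD replicate 2 and PD replicate 3.

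Me1 followed other partners. It had r = 0.888 with Scd1 (exact permutation p = 0.00474, adjusted p = 0.0355; rho = 0.857, exact permutation p = 0.0107, adjusted p = 0.0603; r = 0.792 without PD replicates 3 and 4) but 0.309 with Acly and 0.320 with Acss2. Scd1 and Elovl6, which act on the palmitate that Fasn makes, had r = 0.852 (exact permutation p = 0.00774, adjusted p = 0.0371; rho = 0.881, exact permutation p = 0.00724, adjusted p = 0.0603; r = 0.701 without CD replicate 2 and PD replicate 3). The r of Fasn with these 2 genes fell when CD replicate 2 and PD replicate 1, the mice of lowest Fasn, were left out. Fasn had r = 0.743 with Elovl6 and 0.534 with Scd1, and 0.143 and 0.004 without these mice. Acly, Acaca and Acss2 fell likewise, to between 0.058 and 0.200 with Elovl6 and between −0.115 and 0.051 with Scd1. Leaving out extreme mice also narrows the range, and the 2 effects cannot be told apart here. Whether the pairs differ from each other in r was not tested.

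**Figure D4:**
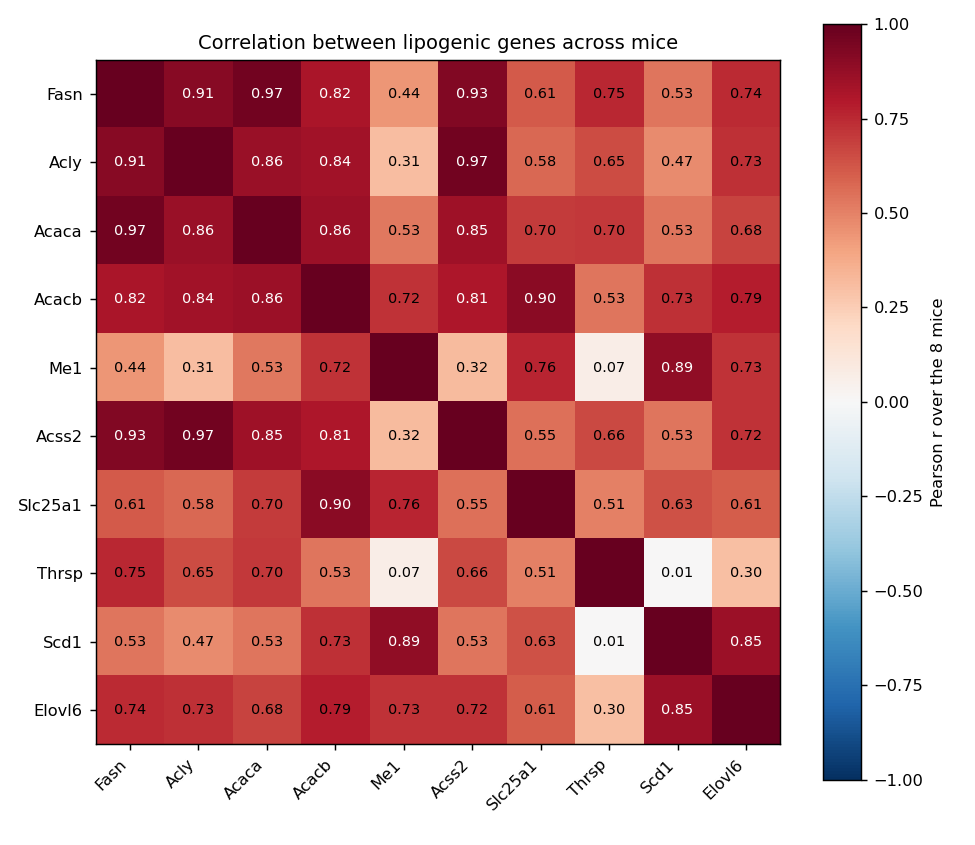
Pearson r over the 8 mice for each pair of the 10 genes (rows and columns, brightest probe set, colour scale from −1 to 1). Each cell prints r, which is above 0 for all 45 pairs and ranges from 0.01 for Thrsp and Scd1 to 0.97 for Acly and Acss2.

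Thrsp had the lowest r with the mean profile of the 10 genes, itself included, at 0.623, against 0.693 to 0.961 for the others. By the median r with the other genes it lay beside Me1 and Scd1 (0.534, against 0.527 and 0.534). It had r = 0.750 with Fasn (exact permutation p = 0.0281, adjusted p = 0.0844; rho = 0.738, exact permutation p = 0.0458, adjusted p = 0.121), 0.005 with Scd1 and 0.068 with Me1. The mouse that parted Thrsp from Fasn was CD replicate 2, the lowest CD mouse for Fasn (11.08) and the highest for Thrsp (13.09 on 1424737_at). Without CD replicate 2 and PD replicate 1, r between Fasn and Thrsp was 0.953.

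**Figure D5:**
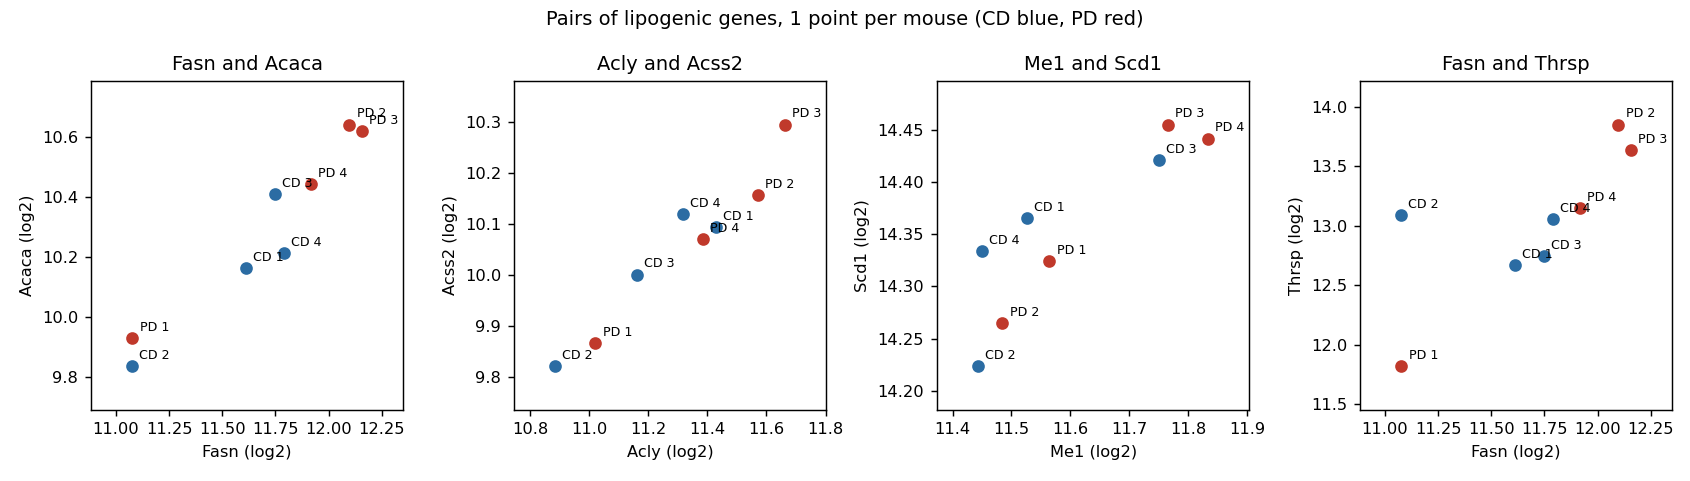
Log2 expression index of 4 pairs of genes against each other, 1 point per mouse, CD blue and PD red, each axis with its own range. The points of Fasn and Acaca, Acly and Acss2, and Me1 and Scd1 lie near a line (r = 0.965, 0.968 and 0.888), and CD replicate 2 lies far above PD replicate 1, the other mouse of low Fasn, in the panel of Fasn and Thrsp.

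Of 12093 genes other than these 10 with a mean above the median level, those most like the mean profile of the 10 were Phlpp2 (r = 0.977), Gnaq (0.964), Pnpla3 (0.962), Celf1 (0.944), Tsr2 (0.938), Cyp51 (0.919), Fdps (0.919), Cyb5r3 (0.913), A4gnt (0.911) and Vgll4 (0.907), where r is over the 8 mice and a description only. The median r of all genes ranked was 0.01 and the 95th percentile 0.61, and 0.0992% of them had r above 0.9. A high r says nothing of the size of the differences between mice. Celf1 ran only from 10.97 to 11.07 over the 8 mice, Tsr2 from 7.88 to 8.02 and Phlpp2 from 7.07 to 7.28, against 8.70 to 9.84 for Fdps. Pnpla3, a lipase-like protein of lipid droplets that is itself known to follow SREBP-1c, was 7.16, 6.81, 7.12 and 7.14 in CD and 6.85, 7.21, 7.66 and 7.30 in PD mice, with CD replicate 2 and PD replicate 1 lowest. Fdps and Cyp51 belong to sterol synthesis. Fdps rose from 9.03 ± 0.23 to 9.38 ± 0.51 (SD, n = 4 each; FDR = 0.0417, rank product), a call that ended when CD replicate 2 was left out (0.25) and when PD replicates 2, 3 or 4 were (0.24, 0.19 and 0.37). Cyp51 was 7.73 ± 0.16 and 7.99 ± 0.25 and was not called. With the diet means removed 4 of the 10 genes stayed among the 10 most alike, and the other 6 ranked no lower than 26.

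None of the 6 regulators named here was called by the rank product or by limma with all 8 mice. Srebf1, the gene of SREBP-1, was 12.08, 11.83, 11.89 and 12.22 in CD and 11.74, 12.41, 12.29 and 11.73 in PD mice. It was low in PD replicate 1 as the enzymes were, but PD replicate 4 was as low. The difference was 0.04 (12.01 ± 0.18 and 12.05 ± 0.36, SD, n = 4 each; 95% interval −0.31 to 0.38). Mlxipl, the gene of ChREBP, differed by −0.01 (95% interval −0.17 to 0.14), Nr1h3, the receptor LXRα, by −0.07 (−0.18 to 0.04), and Mid1ip1, the paralog of Thrsp, by 0.22 (−0.28 to 0.71). Insig1 and Insig2, which hold SREBPs in the endoplasmic reticulum, differed by 0.02 (−0.32 to 0.35) and −0.17 (−0.59 to 0.25). Mid1ip1 was 10.19 in CD replicate 4, against 9.22 to 9.44 in the other CD mice. Without that mouse its difference was 0.44 and it was called (FDR = 0.0188, rank product). Leaving out 1 mouse also turned the sign for Srebf1 (−0.08 to 0.14), Mlxipl (−0.06 to 0.04) and Insig1 (−0.09 to 0.18), and Insig2 ranged from −0.30 to −0.0038.

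Over the 60 pairs of these 6 regulators with the 10 genes, 0 had an adjusted p under 0.05 by Pearson's r (lowest 0.161, exact permutation test) and 9 had an unadjusted p under 0.05. The highest r was that of Insig1 with Thrsp (r = 0.887, exact permutation p = 0.00459, adjusted p = 0.161; rho = 0.690, exact permutation p = 0.0694, adjusted p = 0.481), which fell to r = 0.518 without PD replicates 1 and 2. Insig1 and Acss2 had the highest rho, 0.952 (exact permutation p = 0.00114, adjusted p = 0.0685), with r = 0.835 (exact permutation p = 0.0098, adjusted p = 0.161) and r = 0.895 without the same mice. Srebf1 had its highest r with Acss2 (0.772, exact permutation p = 0.0248, adjusted p = 0.297; rho = 0.810, exact permutation p = 0.0218, adjusted p = 0.327), and r = 0.630 without PD replicates 2 and 3.

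4 lists of neighbouring genes were set beside the 10, each gene on its brightest probe set. Of 11 matched regulators, 5 were higher and 6 lower in PD mice, 0 were called by the rank product, against 0.28% of all genes called higher and 0.357% lower, and the median difference was −0.01. Without CD replicate 4, 1 was called higher, Mid1ip1. 1 of the 11, Usf2, had an unadjusted p under 0.05 in limma (10.01 ± 0.03 and 9.87 ± 0.10, difference −0.14), against 4.24% of all genes. Of 12 matched genes that supply carbon and NADPH, 10 were higher and 0 called, with a median of 0.07, and Pgd (0.23), of the pentose phosphate path, and Dlat (0.21), of pyruvate dehydrogenase, had an unadjusted p under 0.05 in limma. These were 2 of 12, beside the same 4.24%. Of both lists 0 genes passed limma after adjustment.

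Of 13 matched genes of further desaturation, elongation and esterification, 12 were higher, Agpat2 being the exception (−0.15), and the median was 0.15. Fads2, the Δ6 desaturase, was called. It was 10.36, 10.42, 10.63 and 10.49 in CD and 10.58, 10.87, 11.15 and 10.88 in PD mice (1419031_at), a rise of 0.39 (FDR = 0.0238, rank product), and CD replicate 2 was not its lowest mouse. The call on 1419031_at ended when PD replicates 2, 3 or 4 were left out (0.39, 0.30 and 0.39). On 1443838_x_at Fads2 was 8.52 to 8.63 in CD and 8.79 to 9.04 in PD mice, without overlap. That rise of 0.36 was called (FDR = 0.0251, rank product), and the call ended without the same mice. Of all probe sets, 1.06% separated with the PD mice on top. On 1449325_at the difference was 0.28 and was not called (FDR = 0.142, rank product). Fads1 (0.22), Elovl2 (0.16), Acsl4 (0.20) and Fads2, 4 of 13 genes, had an unadjusted p under 0.05 in limma, against 4.24% of all genes, and 0 passed after adjustment. Fads1 was also called without CD replicate 3 (0.29) and Gpam, a glycerol phosphate acyltransferase, without PD replicate 1 (0.38).

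Of 14 matched isoforms and mitochondrial relatives, 7 were higher and 7 lower, with a median of 0.0025. Elovl3, an elongase of saturated very long chain fatty acids, was called lower. It was 12.26, 11.47, 11.75 and 11.72 in CD and 11.97, 10.87, 11.57 and 11.18 in PD mice and fell by 0.40 (FDR = 0.0515, rank product). CD replicate 1 was highest and PD replicate 2 lowest, and the groups overlapped. The call ended when CD replicates 1, 3 or 4 were left out (−0.25, −0.42 and −0.43) and when PD replicates 2 or 4 were (−0.23 and −0.33), and the difference was −0.60 without PD replicate 1. In limma 0 of the 14 had an unadjusted p under 0.05.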

How the data were processed

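Livers of 4 CD and 4 PD mice were each hybridised to an Affymetrix GeneChip array for the mouse genome. The deposited values are on the log2 scale. The authors quantified the array images as model-based expression indices (MBEI) with R 2.7.2, per the submitters' processing notes, and their log2 values were taken over unchanged. Background correction and normalization between arrays are not given in the sources used here. If arrays were scaled to each other, small general shifts between mice cannot be seen. Groups and replicate numbers were taken from the labels. Arrays have no read depth, and the number of mice limits the precision.

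Control probe sets (64) were removed and no filter was applied, leaving 45037, of which 34945 have 1 gene symbol in the platform annotation. The table had 0 columns of unmatched samples. For the rank product (1000 permutations within arrays, 16 array pairs, FDR under 0.1) Python 3.11.15 was used, with the packages scipy 1.17.1, pandas 2.3.3 and numpy 2.4.6. limma 3.58.1, run in R 4.3.3, gave intervals and Benjamini-Hochberg adjusted p-values over all probe sets. Exact permutation tests of the diets, two-sided, used all 70 splits of the 8 arrays. On simulated data of 4 arrays against 4, with 200 of 45037 probe sets changed, the rank product called 100% of changes of 0.5, 1 and 2 on the log2 scale and limma called 91.0%, 98.5% and 100%. The rank product used 200 permutations there. The changed probe sets were drawn at random from all, each with noise of its own spread. The lipogenic probe sets above the median level vary more (median within-group SD 0.27, against 0.09 over all such probe sets). These shares therefore do not give the power for the lipogenic genes.

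The genes, the lists and the tests were chosen with earlier results of these data known, so counts over them are descriptions. Named are all 10 genes with every probe set, Srebf1, Mlxipl, Nr1h3, Insig1, Insig2 and Mid1ip1, list genes called by the rank product, and the 10 genes of highest r with the mean profile. Agpat2, Usf2, Pgd, Dlat, Fads1, Elovl2, Acsl4 and Gpam are named as members of small counts after their values were seen. Alternatives were an FDR under 0.05, quantile normalization, centring on array medians, 16 added before log transformation, removal of dim probe sets, ranks of PD arrays relative to the averaged CD arrays, the replicate number as a block, limma with trend and robust variances or array weights, the methods' t-test, averaging the probe sets of each gene, and leaving out each mouse. The rank product with each mouse left out was added for the lists and the named regulators, and all settings for the count of genes higher in PD mice and their median, after seeing the data. The grouping of Fasn, Acly, Acaca, Acacb and Acss2 was also not set beforehand. Promoter sequences are from RefSeq (GRCm38.p6). Figures were drawn with matplotlib 3.10.9.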

Additional observations from a re-analysis of the deposited data

Results flagged for a closer look

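The values of each of the 25 probe sets in each diet, 50 groups of 4 mice, were examined for a mouse whose gap to the nearest other exceeded Dixon's 95% critical value as a share of the range of its group. 2 groups held one, where chance gives about 1 in 20 groups, or 2.5. Both concern CD replicate 2 and probe sets above the median level. Acly on 1425326_at was 8.12 in CD replicate 2, against 8.59 to 8.67 in the other CD mice (gap over range 0.864). Scd1 on 1415965_at was 10.40 in CD replicate 2, against 11.09 to 11.17 in the other CD mice (gap over range 0.894). PD replicate 1, whose mean deviation over the 10 genes was as low, was not singled out in this way for any probe set.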

How the results depend on the processing

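Centring arrays on the median, or adding 16 first, kept the counts of calls by the rank product and by limma after adjustment, and of the 10 genes higher in PD mice, within 1.5 times of their values. The rank product called 96 probe sets higher and 117 lower, and 158 and 0 when PD arrays were ranked relative to the averaged CD arrays. The lower count was 53 at an FDR under 0.05 and 66 once dim probe sets were removed. The counts ranged from 27 to 190 and from 16 to 207 when 1 mouse was left out. Of the 25 lipogenic probe sets, 5 were called, 2 at an FDR under 0.05 (both Thrsp), and 0 to 7 without 1 mouse: 0 without PD replicate 2 or 3, 1 without PD replicate 4 and 2 without CD replicate 2. In limma 0 probe sets passed (1642 with an unadjusted p under 0.05), and 0 to 1 without 1 mouse, the 1 being found without PD replicate 2. The methods' t-test gave 1711 at an unadjusted p under 0.05 and 0 after Benjamini-Hochberg adjustment. Of the 10 genes most like the mean profile, 4 remained with the diet means removed.

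Differences near 0 changed sign with the processing. When 1 mouse was left out, so did the larger ones of Scd1 1415965_at (0.13) and of the called Thrsp probe sets (0.29 and 0.22). Acacb 1445754_at was 0.0012 after median centring, Thrsp 1444166_at 0.0049 after quantile normalization and 0.0014 after centring, and Elovl6 1442656_at 0.0089 and 0.0086. Without 1 mouse they ranged from −0.032 to 0.021 (Acacb), −0.051 to 0.039 (Thrsp) and −0.055 to 0.026 (Elovl6). Acly 1439445_x_at ranged from −0.017 to 0.048 and 1446315_at from −0.013 to 0.078, Scd1 1415964_at from −0.0022 to 0.071 and 1415965_at from −0.052 to 0.20, and the called Thrsp probe sets 1422973_a_at and 1424737_at from −0.015 to 0.81 and from −0.024 to 0.65. Averaging the probe sets of a gene moved Acacb from 0.35 to 0.17, its dim probe set being at −0.01. It moved Scd1 from 0.04 to 0.08, its second probe set being at 0.13, and the other 8 genes by less than 1.5 times. Why the probe sets of a gene differ was not tested.

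Arrays of the same replicate number did not deviate together (correlations from −0.060 to −0.00031, 0 of 4 above 0.1), so the numbers pair nothing. With the replicate block the rank product called 109 higher and 103 lower and 6 of the 25, adding both bright Elovl6 probe sets and losing Fasn, and limma called 0.

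With 4 mice per diet, a difference of 0.26 as for Fasn has a 95% interval from −0.25 to 0.76, and the precision is set by the spread between mice. Runs without 1 mouse have smaller, unequal groups, so a lost call need not rest on that mouse.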
